A study of Homo sapiens with 3 samples.

Results

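The snoRNA host transcripts GAS5, ZFAS1, EPB41L4A-AS1, TAF1D, SNHG1, SNHG5 and SNHG12 were examined as every probe set whose gene symbols include a member. The rule found 22 of the 33297 probe sets and 6 of the 7 hosts. No probe set lists SNHG5 in the annotation used here. Only 3 of the 22 list 1 symbol (ZFAS1, EPB41L4A-AS1 and TAF1D), and the other 19 list several and are shared with a small RNA.

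All RNA came from H9, a human embryonic stem cell line in long use, held under conditions that preserve pluripotency, with no treatment or genetic change named in the labels. RNA was taken from 3 sources: a polysome-bound fraction, which holds transcripts that carry several ribosomes, a polysome-unbound fraction, and total RNA of whole cells. Each source was measured on 1 array, so no difference given here has a replicate check, and no test was possible. Each array reads RNA pooled over a culture, and fewer cells cannot be told apart from less RNA per cell.

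A snoRNA host is a gene whose introns encode small nucleolar RNAs. The small RNA is trimmed out of the intron and is bound by its protein partners. C/D box snoRNAs (SNORD) then guide ribose methylation of ribosomal RNA and H/ACA box snoRNAs (SNORA) guide its pseudouridylation. The spliced exons of many hosts code for no known protein, begin with a terminal oligopyrimidine (TOP) tract like that of ribosomal protein mRNAs, and reach the cytoplasm, where several are known to be degraded by nonsense-mediated decay, which acts on translated RNAs. TAF1D is the only protein-coding member and encodes a subunit of the SL1 factor of RNA polymerase I. GAS5 is best known for its accumulation in growth-arrested cells, and ZFAS1 and EPB41L4A-AS1 are antisense transcripts of neighbouring coding genes.

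The probe sets fall into 2 kinds. Of the 22, 18 list the RefSeq accession of a snoRNA beside a longer host cDNA, and are called snoRNA probe sets. Their signal can come from the small RNA or from host RNA that still holds the intron, and these cannot be told apart. The remaining 4, for ZFAS1, EPB41L4A-AS1, TAF1D and SNHG12, list only long transcripts and are called long RNA probe sets. The one for SNHG12 names SNORA16A, SNORA61 and SNORA44 as well. This division uses the annotation alone, but was made after the values were seen. GAS5 and SNHG1 have only snoRNA probe sets, so their spliced transcripts were not measured separately. A further 13 probe sets name a snoRNA of these hosts and no host, among them SNORD50A and SNORD50B of SNHG5.

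The start sites of the 4 hosts with a long RNA probe set are shown because the TOP tract is defined by the first transcribed bases. Each line gives 40 bases before and 20 bases from the start in the RefSeq promoter table (GRCh38.p14), 5′ to 3′ on the transcribed strand. Capitals mark a pyrimidine run at the start, which is a C followed by at least 4 bases that are each C or T, and the motif TATATAA.

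ZFAS1, chr20:49278602-49278661, plus strand: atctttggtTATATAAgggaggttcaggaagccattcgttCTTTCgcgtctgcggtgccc

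SNHG12, chr1:28581854-28581913, minus strand: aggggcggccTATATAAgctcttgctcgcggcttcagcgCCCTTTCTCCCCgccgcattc

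TAF1D, chr11:93741476-93741535, minus strand: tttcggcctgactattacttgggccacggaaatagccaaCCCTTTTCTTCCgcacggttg

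EPB41L4A-AS1, chr5:112160486-112160545, plus strand: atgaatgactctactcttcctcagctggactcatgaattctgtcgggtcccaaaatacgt

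A run whose C lies within 1 base of the start, searched on the transcribed strand, was found for ZFAS1, SNHG12, TAF1D and SNHG5, that is 4 of the 7 hosts. It is CTTTC in ZFAS1, and it is 12 bases long in both SNHG12 and TAF1D. EPB41L4A-AS1, GAS5 and SNHG1 do not have these letters at the start given in the table. The same run was present in 5.80% of all 35116 promoter windows, in 14 of the 67 windows of ribosomal protein genes (20.9%) and in 5 of 16 windows of other noncoding snoRNA hosts (31.3%). Most ribosomal protein mRNAs begin with a TOP tract, yet most of their windows lacked the run. A host without the run is therefore not shown to lack a TOP tract. TATATAA, searched on both strands of the same 60 bases, lay 31 bases before the start in ZFAS1, 30 before it in SNHG12 and 32 before it in SNHG5. It was found in 0.812% of all windows, in 4 of the 67 of ribosomal protein genes (5.97%) and in 0 of the 16 of other noncoding hosts. The match in ZFAS1 overlaps a match on the opposite strand.

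Values are log2 expression as deposited, and they compare arrays within a probe set, not probe sets with each other. Background was set at the level that 95% of 482 genes restricted to other tissues stay under, at log2 levels of 4.40 in bound, 3.56 in unbound and 3.76 in total RNA. The median of the 12063 genes past the level filter was 1.26 higher on the bound than on the unbound array. A relative difference is the log2 difference less this offset, or less 1.03 for bound against total and less -0.23 for unbound against total. The median difference of the background genes was smaller, 0.71 for bound against unbound and 0.41 for bound against total. Subtracting the offset can therefore place weak probe sets too far toward the unbound or total side. Of 16 pluripotency markers 15 were above background in total RNA, LEFTY1 excepted, beside 9 of 11 germ layer, 9 of 10 fibroblast and 5 of 8 trophoblast markers.

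Setting bound beside unbound RNA compares the signal of each probe set in the 2 fractions. Whether an RNA found in the bound fraction was on ribosomes was not tested. The long RNAs of ZFAS1, EPB41L4A-AS1, SNHG12 and TAF1D were all lower in bound RNA, by 3.67-fold (TAF1D), 7.47-fold (ZFAS1), 9.87-fold (EPB41L4A-AS1) and 12-fold (SNHG12) relative to the array medians. Past 2-fold lower were 0 of the 6 snoRNA probe sets of TAF1D, 3 of the 6 of SNHG1, 2 of the 3 of GAS5 and all 3 of SNHG12. Of all 22 probe sets 12 were lower in bound RNA by 2-fold or more and 0 were higher, against 9.91% and 6.35% of all genes. One of the 12, SNORA44 in SNHG12, was below background in bound RNA. As deposited, 5 were lower and 5 higher, against 1.56% and 61.4% of all genes.

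**Figure D1:**
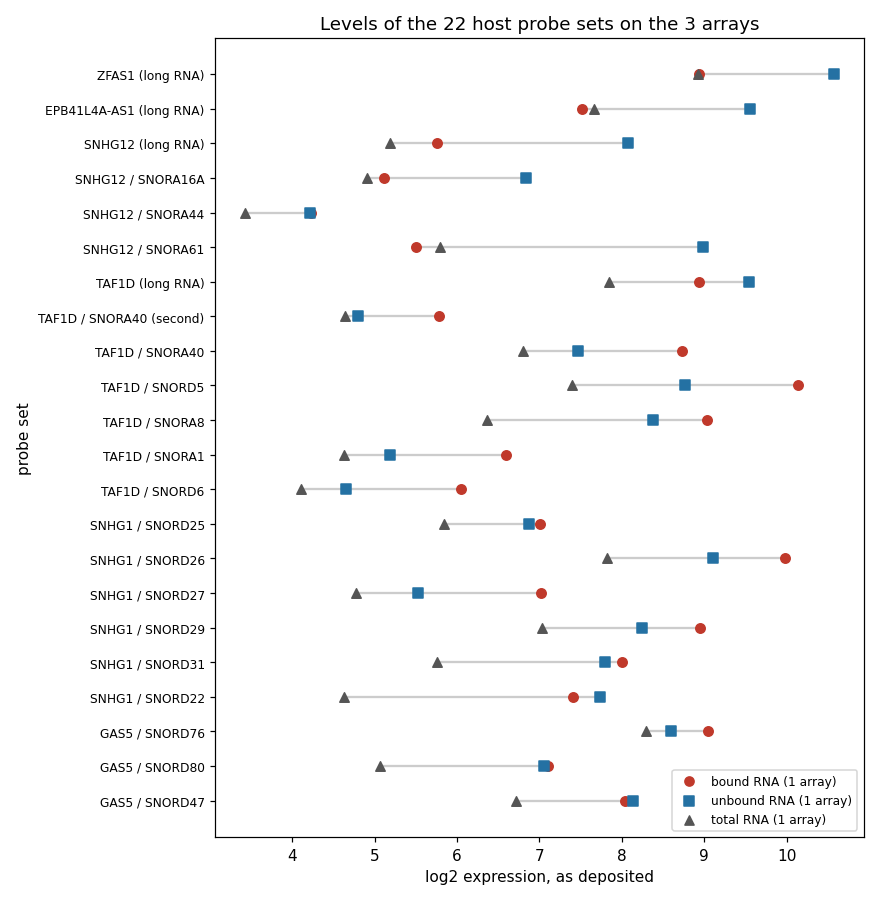
Deposited log2 expression (horizontal axis) of each of the 22 probe sets on the bound (circles), unbound (squares) and total RNA (triangles) arrays, 1 array each. In the 4 long RNA probe sets the unbound value is the highest of the 3, and in the snoRNA probe sets of TAF1D the bound value is the highest. On this scale 11312 of the 12063 genes past the level filter were higher in bound than in unbound RNA.

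ZFAS1 had 8.94 in bound, 10.57 in unbound and 8.93 in total RNA. EPB41L4A-AS1 had 7.52, 9.56 and 7.67 in the same order. Both were highest in unbound RNA, and as deposited their bound and total RNA values were near each other, while after centring bound was lower than total RNA (-1.02 for ZFAS1 and -1.18 for EPB41L4A-AS1). Their relative differences were -2.90 for ZFAS1 and -3.30 for EPB41L4A-AS1, or -1.64 and -2.04 as deposited. Of all genes only 0.72% had a lower value than ZFAS1 and 0.45% a lower one than EPB41L4A-AS1.

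The long RNA probe set of SNHG12 had 5.75 in bound, 8.08 in unbound and 5.18 in total RNA. It had the lowest relative difference of the long RNAs, -3.59, or -2.32 as deposited. TAF1D, whose spliced mRNA is translated into protein, had 8.94 in bound, 9.55 in unbound and 7.84 in total RNA. Its relative difference was -1.88, nearest to 0 of the long RNAs, and -0.61 as deposited, which is short of 2-fold. All 4 long RNAs kept a negative sign on either scale, and 3 of them stayed past 2-fold as deposited.

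The snoRNA probe sets inside TAF1D gave another picture than its mRNA. SNORD5 had 10.13 in bound, 8.76 in unbound and 7.39 in total RNA. SNORA8 had 9.03, 8.38 and 6.36, and SNORA40 had 8.73, 7.47 and 6.80. All 3 were highest in bound RNA as deposited, where the mRNA was highest in unbound RNA. On that scale 11312 of the 12063 genes past the level filter were higher in bound than in unbound RNA. SNORA1 had 6.60, 5.19 and 4.62, and SNORD6 had 6.05, 4.65 and 4.10. The relative differences of bound and unbound RNA of these 5 ran from -0.62 (SNORA8) to 0.15 (SNORA1), with a median of 0.10. A second probe set that lists SNORA40 and TAF1D had 5.78, 4.80 and 4.64, with a relative difference of -0.28. Its identifier lies outside the run of the other TAF1D probe sets, so it may read another locus. All 5, and the second SNORA40 probe set, lay at least 2-fold above the TAF1D mRNA in relative difference.

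Inside SNHG1, a noncoding host of C/D box snoRNAs, SNORD26 had 9.98 in bound, 9.11 in unbound and 7.81 in total RNA. SNORD29 had 8.94, 8.24 and 7.03, and SNORD31 had 8.0, 7.79 and 5.75. SNORD22 had 7.40, 7.73 and 4.63. SNORD22 was the only SNHG1 probe set of the rule that was higher in unbound than in bound RNA as deposited. SNORD27 had 7.02, 5.52 and 4.77, and SNORD25 had 7.01, 6.88 and 5.84. Relative differences ran from -1.59 for SNORD22, past -1.13 for SNORD25 and -1.05 for SNORD31, to 0.24 for SNORD27. SNORD25 and SNORD31 were positive as deposited, at 0.13 and 0.21. The 2 SNHG1 snoRNAs with a probe set of their own lay higher, SNORD28 at 0.41 and SNORD30 at 0.86.

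Inside GAS5, SNORD76 had 9.04 in bound, 8.59 in unbound and 8.29 in total RNA. SNORD47 had 8.04, 8.14 and 6.71, and SNORD80 had 7.10, 7.05 and 5.07. Bound and unbound values were close to each other as deposited, within 0.45, and total RNA was lowest in all 3. The relative differences were -0.81 for SNORD76, -1.35 for SNORD47 and -1.22 for SNORD80, which was 0.05 as deposited. The 7 GAS5 snoRNAs with a probe set of their own ranged from -1.38 (SNORD74) to 0.70 (SNORD77), with a median of -0.11, so the ranges of the 2 kinds overlap.

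The SNHG12 probe sets name H/ACA box snoRNAs, and all 4 were on the unbound side after centring. The SNORA61 probe set had 5.50 in bound, 8.99 in unbound and 5.79 in total RNA, and its relative difference of -4.76 was the lowest of the 22. The SNORA16A probe set had 5.11, 6.83 and 4.91, with a relative difference of -2.98. The SNORA44 probe set had 4.23, 4.22 and 3.43, below background in bound and total RNA. Its relative difference of -1.25 (0.01 as deposited) therefore rests on a value at background, and no fold is given for it.

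**Figure D2:**
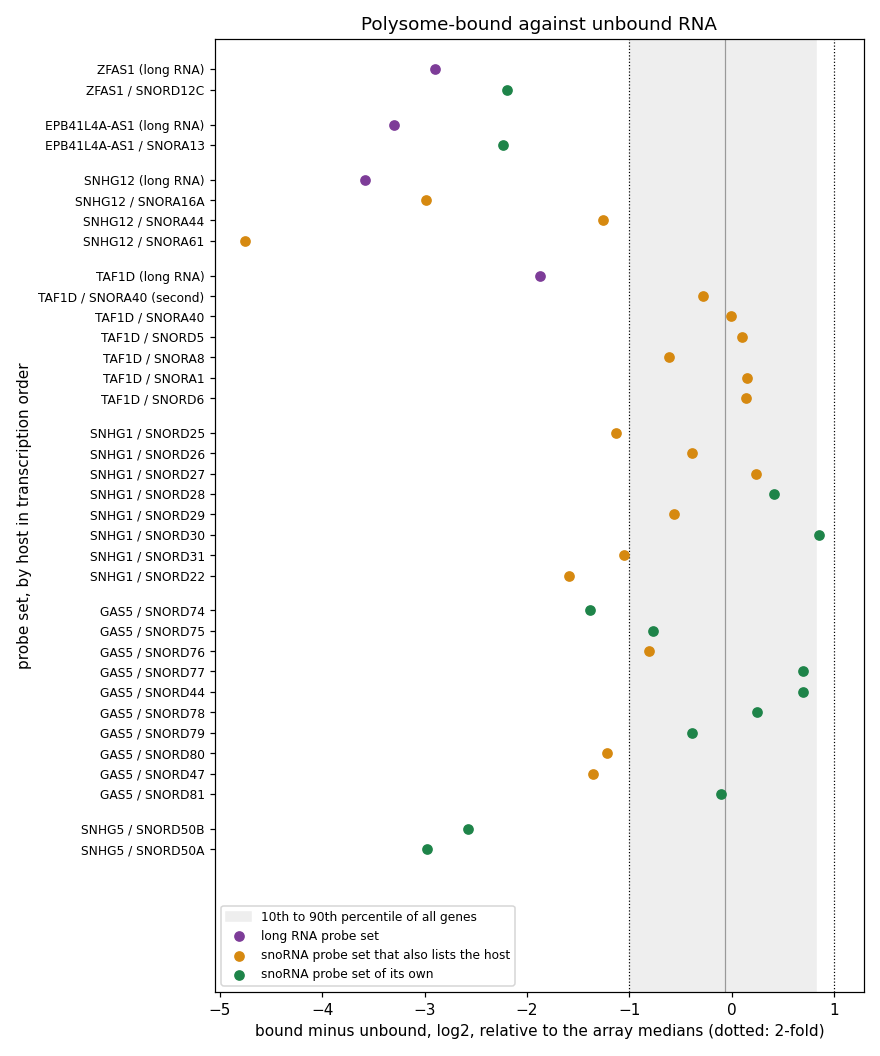
Relative log2 difference of bound and unbound RNA (horizontal axis) for the 22 probe sets and the 13 probe sets that name a snoRNA of these hosts alone, grouped by host and ordered by transcription. Long RNA probe sets lie between -3.59 and -1.88, while the snoRNA probe sets of TAF1D, SNHG1 and GAS5 lie between -1.59 and 0.86. Those of SNHG12, SNHG5, ZFAS1 and EPB41L4A-AS1 lie between -4.76 (SNORA61) and -1.25 (SNORA44) and overlap the long RNA range. SNHG1 and GAS5 have no long RNA probe set.

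The probe sets that name a snoRNA differed along a single host. Those that also name the host may instead read host RNA that still holds the intron. In order of transcription, the GAS5 series began with SNORD74 (-1.38), SNORD75 (-0.77) and SNORD76 (-0.81). It rose to SNORD77 (0.70), SNORD44 (0.69) and SNORD78 (0.25), and ended with SNORD79 (-0.38), SNORD80 (-1.22), SNORD47 (-1.35) and SNORD81 (-0.11). In SNHG1 the values at both ends, SNORD25 (-1.13) first and SNORD22 (-1.59) last, were lower than those between them. These were SNORD26 (-0.39), SNORD27 (0.24), SNORD28 (0.41), SNORD29 (-0.56), SNORD30 (0.86) and SNORD31 (-1.05). They did not rise and fall evenly, and SNORD31 was close to SNORD25. With 1 array per source it is not known whether the order would recur.

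ZFAS1 and EPB41L4A-AS1 have 1 snoRNA probe set each, and both were on the unbound side. So were most of the 195 other snoRNA and scaRNA probe sets past the level filter, with a median relative difference of -1.90. SNORD12C of ZFAS1 had 5.04 in bound, 5.96 in unbound and 4.30 in total RNA, a relative difference of -2.19. SNORA13 of EPB41L4A-AS1, at 3.96 in bound RNA, was below background there, and with 4.93 in unbound RNA its deposited values put it at least 1.45-fold lower in the bound fraction. For SNHG5 only the snoRNAs can be read. SNORD50A had 5.57, 7.28 and 7.36 and SNORD50B 5.26, 6.57 and 4.31, with relative differences of -2.97 and -2.57. SNORA44 and SNORA13 were below background in bound RNA and are left out of a comparison with the host. Of the other 9 snoRNA probe sets of the 4 hosts with a long RNA probe set, 8 had a higher relative difference than their host, and SNORA61 had a lower one. The 6 that were higher by at least 2-fold all lie in TAF1D by the annotation, or 5 without the second SNORA40 probe set. SNORA16A of SNHG12 and SNORD12C of ZFAS1 were above their host by less than 2-fold.

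Counting both kinds, 31 probe sets name a snoRNA of these hosts. The 18 that also name the host may instead read host RNA that still holds the intron. The median relative difference of the 31 was -0.62. In the bound fraction 13 were lower by 2-fold or more and 0 higher, against 9.91% and 6.35% of all genes. As deposited 4 were lower and 11 higher, against 1.56% and 61.4%. The other snoRNA and scaRNA probe sets past the level filter numbered 195 (242 without it). Their median was -1.90, with 141 lower and 2 higher after centring, and 78 and 24 as deposited. Among C/D box snoRNAs the medians were -0.56 for the 23 probe sets of these hosts and -1.75 for 114 others. Among H/ACA box snoRNAs they were -0.94 for 8 and -1.83 for 65. The other probe sets are not all separate snoRNAs. Some list the same symbols with identical values, as those of SNORD3 do (-5.46), and many name copies of SNORD116. The 2 groups overlap widely, and their difference was not tested. By host, TAF1D (median 0.05), SNHG1 (-0.48) and GAS5 (-0.57) lay above the median of the others. SNHG12 (-2.98), SNHG5 (-2.77), EPB41L4A-AS1 (-2.23) and ZFAS1 (-2.19) lay below it, the last 2 with 1 probe set each.

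Other noncoding hosts were found by the same rule. Their 8 long RNA probe sets had a median relative difference of -2.46. In the bound fraction 5 were lower by 2-fold or more and 0 higher, against 9.91% and 6.35% of all genes. As deposited 4 were lower and 0 higher, against 1.56% and 61.4%. The SNHG11 probe set among them (-2.22) also names SNORA60. SNHG29 was lowest with -4.75 and -2.71 in its 2 probe sets. A probe set shared by SNHG32 and SVIL occurs 2 times with identical values (-3.07), and both are among the 5. SNHG17, at -0.77 and -0.72, and the probe set shared by RCC1 and SNHG3, at -0.39, were nearest to 0. All 6 of their snoRNA probe sets were 2-fold lower, from -1.16 for SNORA71B in SNHG17 to -6.65 for SNORA73A in SNHG3. As deposited 5 of the 6 were 2-fold lower.

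Coding genes of the same pathways were counted at 2-fold in the same way, where 9.91% of all genes were lower and 6.35% higher after centring, and 1.56% lower and 61.4% higher as deposited. Of 63 ribosomal protein mRNAs past the filter 58 were past 2-fold toward the unbound side after centring, with a median of -2.55, from RPS21 (-3.45) and RPL10A (-3.39) to RPL39L (0.21) and RPL7L1 (0.57). The list holds genes named as paralogs of ribosomal proteins, which may not be TOP mRNAs. Such genes make up its upper end, RPSA2 (-0.64), RPS27L (-0.40), RPL26L1 (0.09), RPL39L and RPL7L1. Of 22 other TOP mRNAs 20 were lower, with a median of -1.95. TPT1 (-3.07) and NOP53 (-3.03), a ribosome biogenesis protein, were lowest, and TOMM20 (-0.99) and EIF3A (0.60) highest. As deposited, 43 of the 63 and 7 of the 22 were lower. The long RNAs of these hosts, with a median of -3.10, lay within the range of the ribosomal protein mRNAs except SNHG12, which was below it. EPB41L4A-AS1 and SNHG12 were below the range of the other TOP mRNAs.

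Of 23 mRNAs of coding snoRNA hosts outside the ribosome 8 were lower and 2 higher, with a median of -0.65. TPT1 (-3.07) and the elongation factor EEF2 (-2.27) were lowest and the chromatin remodeller CHD8 (1.24) and PRRC2A (1.43) highest. As deposited, 2 were lower and 9 higher, a smaller share higher than the 61.4% of all genes. Among 16 snoRNP proteins and assembly factors, which package the snoRNAs, 1 was lower, the C/D box methyltransferase FBL (-1.90), and 1 higher, TCOF1 (1.05). ZNHIT3 (-0.67) was second lowest and the H/ACA protein NHP2 (0.90) second highest, and 12 of the 16 were higher as deposited. These counts of 1 in each direction are near the shares of all genes (9.91% and 6.35%). Among 16 nonsense-mediated decay factors 1 was lower, NBAS (-1.08), and 2 higher, the kinase SMG1 (1.28) and the helicase UPF1 (1.17). PNRC2 had -0.61, and as deposited 13 of the 16 were higher and 0 lower. The centred counts are again close to the shares of all genes. Of 9 long noncoding RNAs that are not listed as hosts 5 were lower, the catalytic RNAs RPPH1 (-6.47) and RMRP (-5.58) most, while JPX (0.62) and TUG1 (0.84) were highest.

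**Figure D3:**
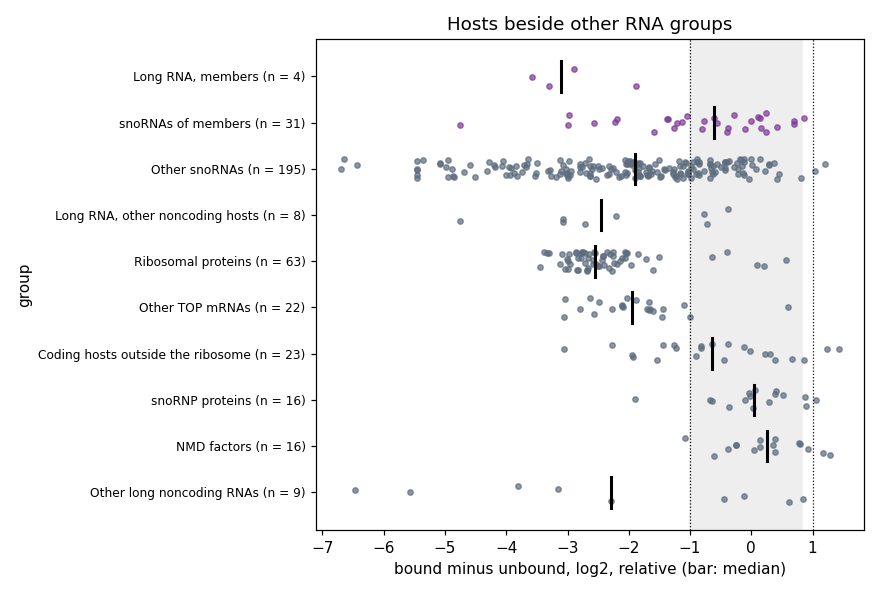
Relative log2 difference of bound and unbound RNA (horizontal axis) for the long RNA probe sets and snoRNA probe sets of these hosts beside other RNA groups, 1 point per probe set or gene, with the median as a bar and the 10th to 90th percentile of all genes in grey. The host long RNAs (median -3.10) lie beside the ribosomal protein mRNAs (median -2.55). The median of the probe sets that name a snoRNA of the hosts (-0.62) lies to the right of that of other snoRNAs (-1.90). By host this holds for TAF1D, SNHG1 and GAS5, and not for ZFAS1, EPB41L4A-AS1, SNHG5 and SNHG12.

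Bound RNA was then set against total RNA. Total RNA was purified with another kit than the polysome fractions, and in this and the next comparison the kit cannot be told apart from the source. After centring 7 of the 22 probe sets were higher in bound RNA by 2-fold or more and 3 lower, against 2.66% and 6.41% of all genes. As deposited 15 were higher and 0 lower, against 40.1% and 0.572%. All 7 were snoRNA probe sets. They were those of SNORD22 (1.75), SNORD31 (1.22), SNORD27 (1.22) and SNORD26 (1.14) in SNHG1, SNORD5 (1.71) and SNORA8 (1.63) in TAF1D, and SNORD80 (1.0) in GAS5. The 3 lower ones were the long RNAs of ZFAS1 (-1.02, and 0.01 as deposited) and EPB41L4A-AS1 (-1.18) and the SNORA61 probe set of SNHG12 (-1.32). The long RNAs of SNHG12 (-0.46) and TAF1D (0.06) were short of 2-fold. SNORD81 of GAS5, which has a probe set of its own, had 7.57 in bound, 6.41 in unbound and 4.41 in total RNA, and its value of 2.13 was the highest of all 35 probe sets. The lowest of the 35 was SNORD50A of SNHG5, at -2.82, or -1.80 as deposited.

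Unbound RNA was above total RNA for all 22 probe sets, on the centred scale and as deposited. At least 2-fold higher were 16 after centring, against 8.09% of all genes, and 15 as deposited, against 5.42%. None was 2-fold lower on either scale, against 9.96% and 16% of all genes. The long RNAs were 1.88 (ZFAS1), 1.94 (TAF1D), 2.12 (EPB41L4A-AS1) and 3.13 (SNHG12). Those of SNORA61 in SNHG12 (3.43) and SNORD22 in SNHG1 (3.34) were highest, and the second SNORA40 probe set (0.40) and SNORD76 in GAS5 (0.54) lowest. The 13 probe sets that name a snoRNA alone did not all share this direction. After centring 2 of them were below total RNA, SNORD28 (-0.58) and SNORD77 (-0.06). As deposited 3 were below it, these and SNORD50A (-0.09). This comparison and the previous one share the total RNA array, so the 2 values of a probe set are not independent. Of the other 195 snoRNA probe sets 109 were at least 2-fold higher in unbound than in total RNA and 1 was lower.

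**Figure D4:**
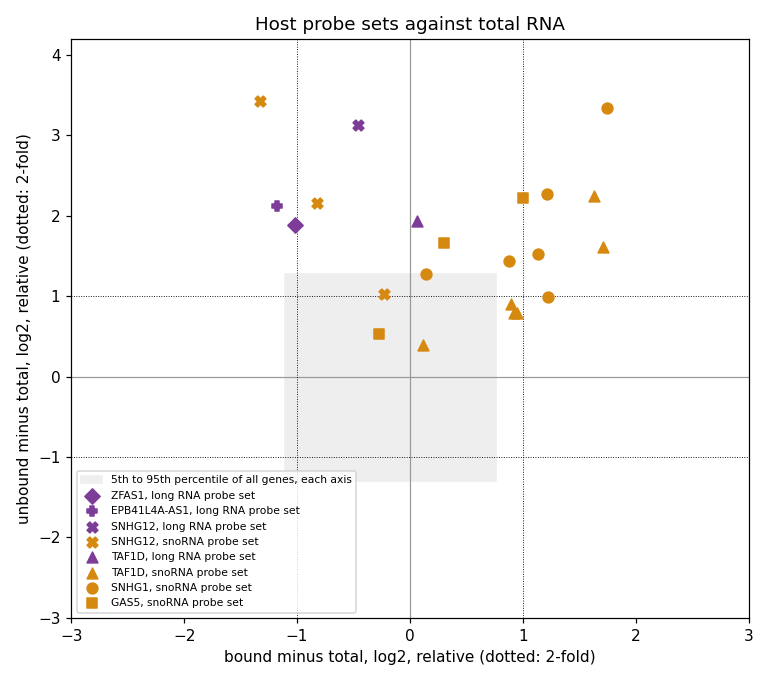
Relative log2 difference of bound and total RNA (horizontal axis) and of unbound and total RNA (vertical axis) for the 22 probe sets, with the 5th to 95th percentile of all genes in grey. All points lie above 0 on the vertical axis, and the long RNA probe sets of ZFAS1, EPB41L4A-AS1 and SNHG12 lie left of 0 while all SNHG1 probe sets lie right of it.

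The genes whose pattern over the 3 arrays was most like the members' were sought by Euclidean distance between array-centred log2 values, each less the gene's mean. Nearest to the median profile of the 22 probe sets among 11851 genes were GALT (distance 0.098), MBNL3 (0.10), ZFAND2A (0.10), TMEM25 (0.11) and NUP62CL (0.11). That profile averages 2 kinds of probe sets that differ. Nearest to the median profile of the 4 long RNA probe sets, a search added after the values were seen, were RPL32 (0.094), MPLKIP (0.13), NOX4 (0.16), ST6GALNAC6 (0.21) and the m6A writer METTL3 (0.22).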

How the data were processed

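Each array has 1 column of log2 expression as the authors deposited it. Partek 6.5 and RMA are the tools named, per the submitters' processing notes. How the arrays were scaled to each other is unknown, because the columns differ in distribution. The decimals of the bound column point to an added constant of 0.113 to 0.114, which cancels in relative differences. Genome build and polysome separation are not given in the sources used here.

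Symbols came from GEO's platform annotation. Of the probe sets 19460 list 1 symbol, 1754 several and 12083 are not listed. All genes means 18417 genes with a 1-symbol probe set (the highest in mean), of which 12063 had a mean above 3.84, the 95th percentile of that mean in genes restricted to other tissues. All 22 member probe sets passed this level. Percentages beside counts are shares of the 12063 genes past 2-fold. With 1 array per group no test was run, and precision is limited by that number. A value at or below background gives only a lower bound of fold against that array's background.

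Named genes are the members, the nearest profiles and, from each pathway list, the 2 at either end of the bound against unbound difference. The members and lists were chosen with earlier results of these data known. The 36 snoRNAs listed for the hosts all lie inside their host's span in RefSeq (GRCh38.p14). Scripts were tested on simulated data. Python 3.11.15 was used with pandas 2.3.3, numpy 2.4.6, matplotlib 3.10.9 and statsmodels 0.14.6.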

Additional observations from a re-analysis of the deposited data

How the results depend on the processing

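Of the 22 probe sets, 12 were lower in bound than unbound RNA after centring. The count was 5 as deposited, 7 at a 3-fold threshold and 3 with 1-symbol probe sets only, and 5 were higher as deposited. Between bound and total RNA the 3 lower became 0 as deposited and 0 at 3-fold, and the 7 higher became 15 as deposited, 11 at 1.5-fold, 3 at 3-fold and 0 with 1-symbol probe sets only. Only 3 probe sets have 1 symbol, and all 3 were higher in unbound than total RNA. Between bound and unbound RNA 10 of the 22 went from a positive deposited difference to a negative one once centred. Of these, 4 were past 2-fold lower after centring, namely SNORA44 in SNHG12 (0.0081 as deposited), SNORD80 in GAS5 (0.046), SNORD31 (0.21) and SNORD25 (0.13) in SNHG1. Between bound and total RNA 5 changed sign in the same way, of which ZFAS1 (0.010 as deposited) was past 2-fold lower after centring. The offset between arrays, 1.26 or 1.03, separates the 2 scales. Under quantile normalization, removal of a lowess trend (span 0.3), no level filter, a background at its 99th percentile, all listed probe sets as the centre, gene means over probe sets, subtraction of the constant, and omission of the second SNORA40 probe set, the last chosen after seeing the data, these counts stayed within 1.5 times. No paired analysis was possible because each group has 1 array. Values near background, as for SNORA44 and SNORA13, limit what their differences show.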
